A study of Mus musculus with 6 samples.

Results

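The 6 genes described here, *Egfr*, *Pdgfra*, *Cspg4*, *Nkx2-2*, *Aldh1l1* and *Slc1a3*, mark or drive the astrocyte and oligodendrocyte lineages, and the Gli3 binding sites around them in the embryonic mouse cortex are described one by one. A site was counted for a gene when its midpoint lay inside the gene or at most 200 kb from the gene-level transcription start site (TSS), and 15 of the 4114 Gli3 sites in the deposited list met this rule. The data came from chromatin immunoprecipitation followed by sequencing (ChIP-seq) of wild-type cerebral cortex at embryonic day 15, with 3 Gli3 ChIP libraries and 3 libraries of input DNA, which is sheared chromatin without immunoprecipitation. The labels name no transgene, deletion or drug in either group, and do not say how many embryos went into a library. The authors joined the replicates in 1 list that gives each site a position and no height, score or read count. No error between replicates, no test and no depth could therefore be given, and a site is a stretch that was called or not called. The whole cortex was used, so the cell type in which Gli3 occupied a site is not known, and gene expression was not measured in these libraries.

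Gli3 is a zinc finger transcription factor of the Sonic hedgehog (Shh) pathway. In the absence of Shh it is cut to a repressor, and Shh signaling lowers that repressor, so that genes held down by it can be transcribed. Late in gestation the stem cells of the cortex stop making neurons for its layers and turn to glia. Egfr, a receptor tyrosine kinase for EGF-like ligands, is switched on in cortical progenitors around that time. Pdgfra, the receptor for PDGF-A, and Cspg4, the NG2 proteoglycan, mark oligodendrocyte precursor cells, and Nkx2-2 is a homeodomain factor that promotes oligodendrocyte differentiation. Aldh1l1, an enzyme of folate metabolism, and Slc1a3, the glutamate transporter GLAST, mark astrocytes, and *Slc1a3* is also expressed in radial glial cells.

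All 6 genes had at least 1 Gli3 site, and a site was found for 53.6% of the 21938 protein-coding genes under the same rule. At least 2 sites were found for 5 of the 6 genes, against 28.2% of protein-coding genes, and *Egfr* was the exception. The 6 genes were chosen with earlier results of these data known, so these counts cannot show an enrichment. None of the 6 had a site within 2 kb of its gene-level TSS, where 6.88% of protein-coding genes had one. With the limit set at 50 kb from the TSS, and sites inside the gene still counted, 3 of 6 genes had a site, *Cspg4*, *Nkx2-2* and *Aldh1l1*, against 25.2% of protein-coding genes. Most of the sites were also counted for neighbouring genes, some of which are named with each gene.

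**Figure D1:**
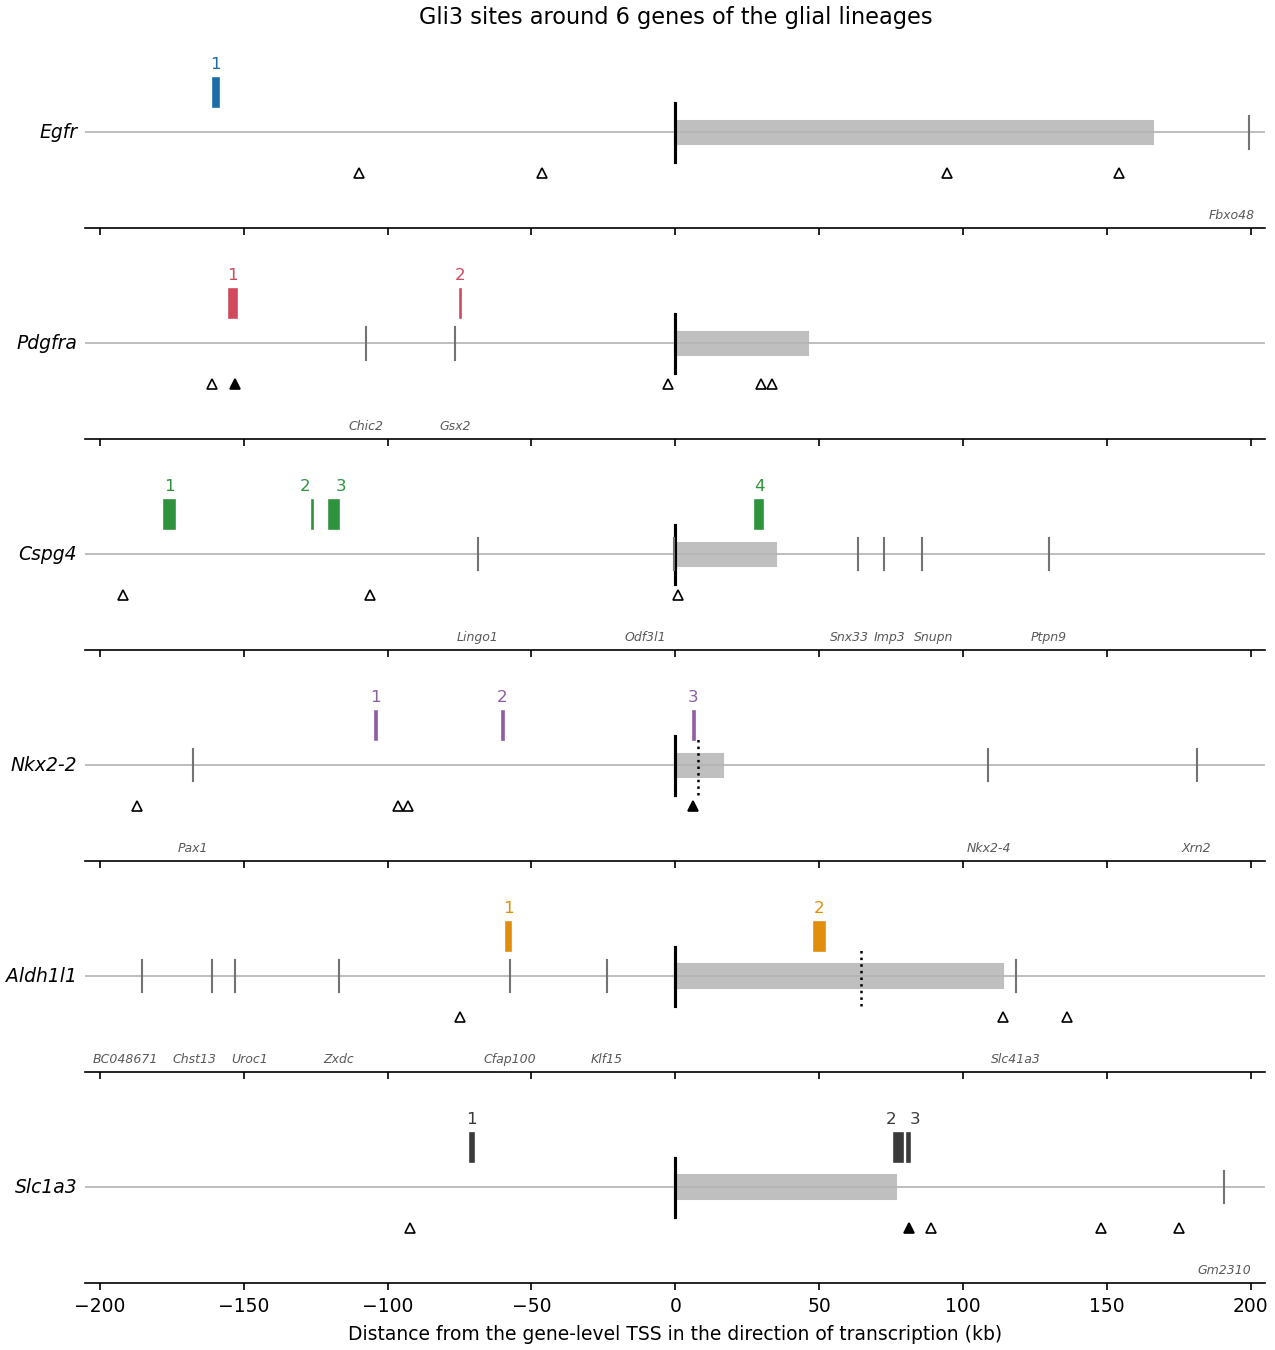
Gli3 sites around the 6 genes, 1 gene per row, with the distance from the gene-level TSS in kb on the horizontal axis and transcription running to the right. Coloured boxes are sites drawn to scale and numbered from upstream to downstream, grey bars are the genes, dotted lines the TSS of the coding transcripts where it differs, short grey lines the TSSs of other protein-coding genes, and triangles exact GLI cores, filled where they lie in a site. Of the 15 sites, 10 lie upstream of the TSS and 5 downstream, and 3 of the 24 cores are filled.

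The DNA of the sites was searched for the GLI core GACCACCCA, the word of 9 bases that Gli proteins recognise, on both strands. An exact core was present in 3 of the 15 sites, 1 each at *Pdgfra*, *Nkx2-2* and *Slc1a3*. The cores are shown because they are the only exact ones inside the 15 sites, and the sites that hold them were counted for 3 of the genes. Each lies on the minus strand of mm10 and is printed 5′ to 3′ on that strand with the core in capitals. The stretch of *Pdgfra* site 1, chr5:74999113-74999141, is in the 3′ UTR of the neighbouring gene *Chic2* and is kept short. That of *Nkx2-2* site 3 is chr2:147188191-147188319, in intron 1 of a noncoding transcript of *Nkx2-2*, and that of *Slc1a3* site 3 is chr15:8629553-8629681, which is intergenic.
Pdgfra site 1: cctctgcaaaGACCACCCActtttggagc
Nkx2-2 site 3: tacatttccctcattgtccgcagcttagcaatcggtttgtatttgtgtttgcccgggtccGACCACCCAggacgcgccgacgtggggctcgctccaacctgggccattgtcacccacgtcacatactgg
Slc1a3 site 3: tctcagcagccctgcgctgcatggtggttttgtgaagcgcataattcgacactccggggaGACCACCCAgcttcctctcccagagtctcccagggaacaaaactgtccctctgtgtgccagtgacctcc

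No site of *Egfr* or *Cspg4* held an exact core, and the words closest to it there differed at 1 base. Substitutions are counted from 1 at the 5′ end of the core, with the base of the core first. The words of *Egfr* site 1 carry C8A at chr11:16591862-16591930 and G1A at chr11:16593396-16593464, both on the minus strand. *Cspg4* site 3 carries G1A at chr9:56746198-56746266 on the plus strand, in intron 2 of *Lingo1*, and *Cspg4* site 4 carries C8G at chr9:56893366-56893434 on the plus strand, in intron 8 of *Cspg4*. The coordinates are those of the stretches shown, with the word in capitals.
Egfr site 1, C8A: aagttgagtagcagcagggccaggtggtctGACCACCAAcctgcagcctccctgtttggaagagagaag
Egfr site 1, G1A: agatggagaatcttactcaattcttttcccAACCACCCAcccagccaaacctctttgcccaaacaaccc
Cspg4 site 3, G1A: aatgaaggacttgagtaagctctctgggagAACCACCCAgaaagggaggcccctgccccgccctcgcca
Cspg4 site 4, C8G: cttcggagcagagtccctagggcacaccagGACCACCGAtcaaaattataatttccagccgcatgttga

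At *Aldh1l1*, neither site held the core or a word within 1 mismatch of it. The central 200 bases of *Aldh1l1* site 2, in intron 1 of a noncoding transcript of the gene, are shown for that reason, from the plus strand at chr6:90536272-90536471. The capitals mark the SOX family word ACAATG, which reads CATTGT on this strand.
Aldh1l1 site 2, centre: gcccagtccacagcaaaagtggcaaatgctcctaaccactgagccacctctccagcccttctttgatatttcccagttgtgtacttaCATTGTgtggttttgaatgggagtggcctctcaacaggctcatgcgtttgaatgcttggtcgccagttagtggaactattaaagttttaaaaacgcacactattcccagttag

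*Egfr* (ENSMUSG00000020122.16, chr11:16752203-16918158, plus strand, 166 kb) had 1 site, the fewest of the 6 genes. Of protein-coding genes, 25.4% had 1 site and 28.2% had more. The site, chr11:16591318-16593719, was 2402 bp wide and lay in intergenic DNA 160 kb upstream of the TSS. Its nearest protein-coding TSS was that of *Sec61g*, a subunit of the protein translocation channel, at 84 kb. The site was also counted for *Sec61g*, which had 2 sites under the rule. A site nearer to the TSS than that of *Egfr* was found for 47.2% of protein-coding genes, which places *Egfr* near the middle of all genes. Neither the 166 kb of the gene itself nor its promoter was covered by a site. The next site beyond the 200 kb limit was 217 kb upstream, again nearest to *Sec61g*. The site had a GC content of 49.5%, and 27.7% of its bases were soft-masked, that is, written in lower case in the assembly as repeats, the highest share of the 15 sites. The bHLH word CAGCTG occurred 2 times in it, and the SOX word ACAATG and the homeodomain word TAATTA did not occur. The *Egfr* window also held 4 exact cores, the nearest 46.5 kb upstream of the TSS, and none of them was in a site.

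*Pdgfra* (ENSMUSG00000029231.15, chr5:75152292-75198215, plus strand, 45.9 kb) had 2 sites, both upstream and both with the midpoint in the 3′ UTR of another protein-coding gene. Site 1, chr5:74996756-74999956, was 3201 bp wide and lay 154 kb upstream, with its midpoint in exon 6 of *Chic2*. Site 2, chr5:75077059-75077685, was 627 bp wide and lay 74.9 kb upstream. Its midpoint was in exon 2 of *Gsx2*, a homeobox gene of ventral forebrain progenitors. The midpoint of site 2 was 1770 bp from the *Gsx2* TSS, so that it was classed as a promoter site of *Gsx2* and not of *Pdgfra*. Both sites were also the complete set of sites of *Gsx2* and of *Chic2* under the rule, and the list cannot assign them to 1 of the 3 genes. The sites differed in sequence. Site 1 was the most AT-rich of the 15, with a GC content of 43.3%, and held the exact core, 4 copies of ACAATG and 2 copies each of TAATTA and CAGCTG. Site 2 held the core in no form and none of these words, and it was narrower than 95.7% of all sites. The core of site 1 lay 771 bp from the centre of the site. A core was also present 2.46 kb upstream of the *Pdgfra* TSS, 72149 bp from the nearest site, so that the core closest to the TSS was not in a called site. The 2 cores inside *Pdgfra*, 29.8 and 33.6 kb downstream of the TSS, were not in a site either. The next site outside the window was 356 kb upstream, near *Lnx1*.

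*Cspg4* (ENSMUSG00000032911.6, chr9:56865033-56899870, plus strand, 34.8 kb) had 4 sites, the most of the 6 genes, and 3.27% of protein-coding genes had more. Sites 1 to 3 lay 176, 126 and 119 kb upstream, all with midpoints in introns of *Lingo1*, which encodes a transmembrane protein that restrains myelination. Site 1, chr9:56686925-56691162, was 4238 bp wide, the widest of the 15, and its midpoint was 3790 bp from a *Lingo1* TSS. Site 2, chr9:56738545-56739091, was 547 bp wide, the narrowest of the 15, and was separated by 5270 bp from site 3, chr9:56744362-56748085, of 3724 bp. Site 4, chr9:56892494-56895651, was 3158 bp wide and lay 29 kb downstream of the TSS, with its midpoint in intron 8 of *Cspg4* itself. For sites 1 to 3 the nearest protein-coding TSS belonged to *Lingo1*, and for site 4 to *Cspg4*. All 4 sites were also counted for *Odf3l1*, whose TSS is 354 bp from that of *Cspg4*, and for *Lingo1*, which had 5 in all. The next site outside the window, 221 kb upstream, was again nearest to *Lingo1*.

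The *Cspg4* sites held no exact core, and 4 words with 1 mismatch. The word G1A of site 3 lay 9 bp from the centre of the site, closer than any other core or near core of the 15 sites. The C8G word of site 4 lay 672 bp from the centre, and a further word of site 4, A5T, was in soft-masked sequence, the only one of the 12 near cores of which this was true. The word of site 1, A2C, lay 1236 bp from the centre. TAATTA occurred 5 times in site 3 and 4 times in site 1, and in sites 2 and 4 it did not occur. CAGCTG occurred 3 times in each of sites 3 and 4. Site 4 had the highest GC content of the 15 sites, 56%. An exact core stood 0.857 kb downstream of the *Cspg4* TSS, 26604 bp from the nearest site.

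*Nkx2-2* (ENSMUSG00000027434.11, chr2:147177546-147194243, minus strand, 16.7 kb) had 3 sites and, among the 6 genes, the site closest to a TSS. Site 3, chr2:147187581-147188597, was 1017 bp wide and lay 6.15 kb downstream of the gene-level TSS, which belongs to a longer noncoding transcript. Measured from the TSS of the coding transcript, 7839 bp further downstream, the same site lay 1685 bp upstream, within the 2 kb used to define a promoter. It was the only site of the 15 that was a promoter site of its own gene. A site closer to the gene-level TSS than that of *Nkx2-2* was found for 8.38% of protein-coding genes. The exact core of site 3 lay 166 bp from the centre of the site and 1847 bp upstream of the coding TSS. The CpG content of this site was also the highest of the 15, with an observed to expected ratio of 0.748. The site overlapped exon 3 of the antisense transcript *6430503K07Rik* and intron 1 of the antisense gene *Nkx2-2os*. Counting noncoding transcripts too, the TSS nearest to its midpoint was that of *6430503K07Rik*, at 665 bp.

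The other 2 sites of *Nkx2-2* lay upstream, with midpoints in introns of *Nkx2-2os*. Site 2, chr2:147253961-147254683, was 723 bp wide and lay 60.1 kb upstream of the gene-level TSS. Site 1, chr2:147297784-147298956, was 1173 bp wide and lay 104 kb upstream, and its nearest protein-coding TSS was that of *Pax1*, a paired box gene, at 63.6 kb. Site 1 held a word with the substitution C3G, 363 bp from its centre, and site 2 held no core or near core. All 3 sites were at the narrow end of the list, each narrower than 80.8% or more of all sites. *Pax1* had the same 3 sites as *Nkx2-2* under the rule, and *Nkx2-4*, a neighbouring member of the Nkx2 family, shared 2 of them. The next site outside the window was 235 kb downstream, near *Xrn2*.

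*Aldh1l1* (ENSMUSG00000030088.15, chr6:90486427-90600203, plus strand, 114 kb) had 2 sites. Site 1, chr6:90427292-90429237, was 1946 bp wide, lay 58.2 kb upstream and covered the start of *Cfap100*, a gene for a cilia and flagella protein, with a *Cfap100* TSS 131 bp from its midpoint. None of the words searched for occurred in it. Site 2, chr6:90534339-90538405, was 4067 bp wide and lay inside *Aldh1l1*, 49.9 kb downstream of the gene-level TSS. The gene-level TSS again belongs to a noncoding transcript, and the coding TSS lies 64362 bp downstream of it. From the coding TSS, site 2 was 14.4 kb upstream, and *Aldh1l1* was its nearest protein-coding gene. Of all sites 9.67% were wider, and it held 4 copies of CAGCTG and 2 copies of ACAATG. The same 2 sites were the complete sets of *Klf15*, *Cfap100* and *Zxdc*. The window held 3 exact cores, at 74.7 kb upstream and at 114 and 136 kb downstream, and none was in a site. The next site beyond the limit was 237 kb downstream, near *Iqsec1*.

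*Slc1a3* (ENSMUSG00000005360.14, chr15:8634124-8710764, minus strand, 76.6 kb) had 3 sites, and *Slc1a3* was the nearest protein-coding TSS of all 3. Site 1, chr15:8780602-8782643, was 2042 bp wide and lay 70.9 kb upstream in intergenic DNA, with its nearest neighbour among all sites 146 kb away. Sites 2 and 3 lay together at the 3′ end of the gene, 77.4 and 80.8 kb downstream of the TSS, with 976 bp between them. Site 2, chr15:8631737-8634995, was 3259 bp wide, and 872 bp of it overlapped the gene, while its midpoint was 758 bp past the gene end. Site 3, chr15:8629187-8630760, was 1574 bp wide and had its midpoint 4151 bp past the gene end.

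The pair of sites at the 3′ end of *Slc1a3* held 6 words of the core or its near forms, against 4 in the 4 sites of *Cspg4*. Site 3 held the exact core, 356 bp from its centre, and words with G1A and G1T. Site 2 held words with A9G, C3G and C6T, the last in the 3′ UTR of *Slc1a3*. Site 1 held none, and its observed to expected CpG ratio was 0.423, the highest among the nonpromoter sites of the 15. One further exact core lay 7370 bp from site 3. No other protein-coding gene shared these sites in full. The highest overlap was 0.4, as the shared sites over all sites of either gene, with *Gm2310* and with *Nipbl*, a cohesin loading factor. Beyond the limit, the next site was 225 kb downstream, near *Gm2310*.

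The 6 genes, chosen with earlier results of these data known, were then set beside all protein-coding genes. The median number of sites was 2.5 for the 6 genes and 1 for all protein-coding genes, whose middle range was 0 to 2. The windows differ in their gene content, since other protein-coding TSSs in them ranged from 1 for *Egfr* and *Slc1a3* to 7 for *Aldh1l1*. The median distance from the TSS to the nearest site was 60.4 kb for the 6 genes and 177 kb for all, with a middle range of 55.4 to 487 kb. In order of that distance the genes were *Nkx2-2*, *Cspg4*, *Aldh1l1*, *Slc1a3*, *Pdgfra* and *Egfr*. The precision of these positions is not known, and *Slc1a3* at 70.9 kb and *Pdgfra* at 74.9 kb differed by less than the width of the widest of the 15 sites. The median gap from a site to the next was 54.8 kb for the 15 sites and 94.4 kb for all sites, a difference that was not tested.

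**Figure D2:**
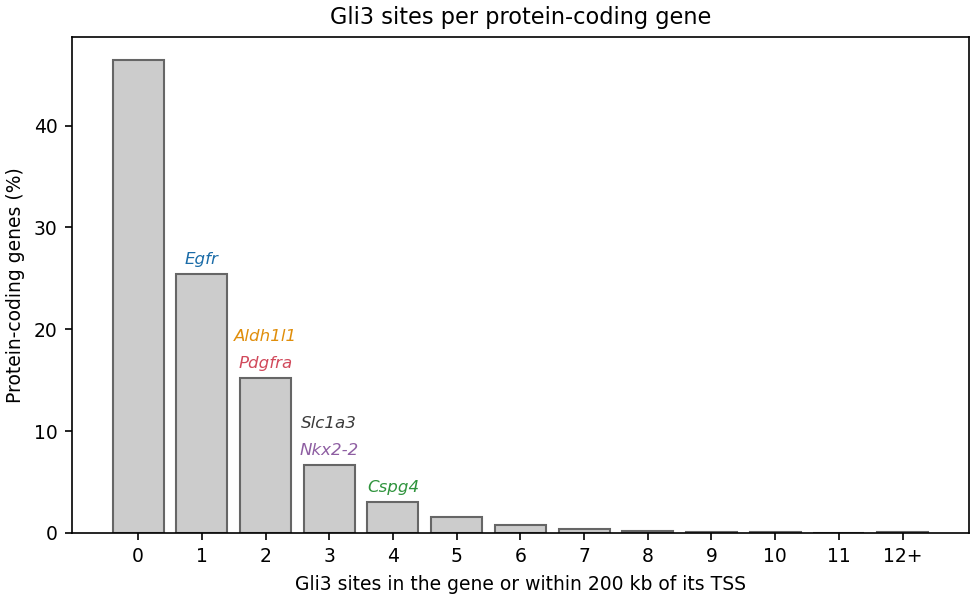
Share of the 21938 protein-coding genes (vertical axis, %) by the number of Gli3 sites in the gene or within 200 kb of its TSS (horizontal axis). The 6 genes are written over the bar of their count, from *Egfr* with 1 site to *Cspg4* with 4, and the bar at 0 holds 46.4% of genes and none of the 6.

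**Figure D3:**
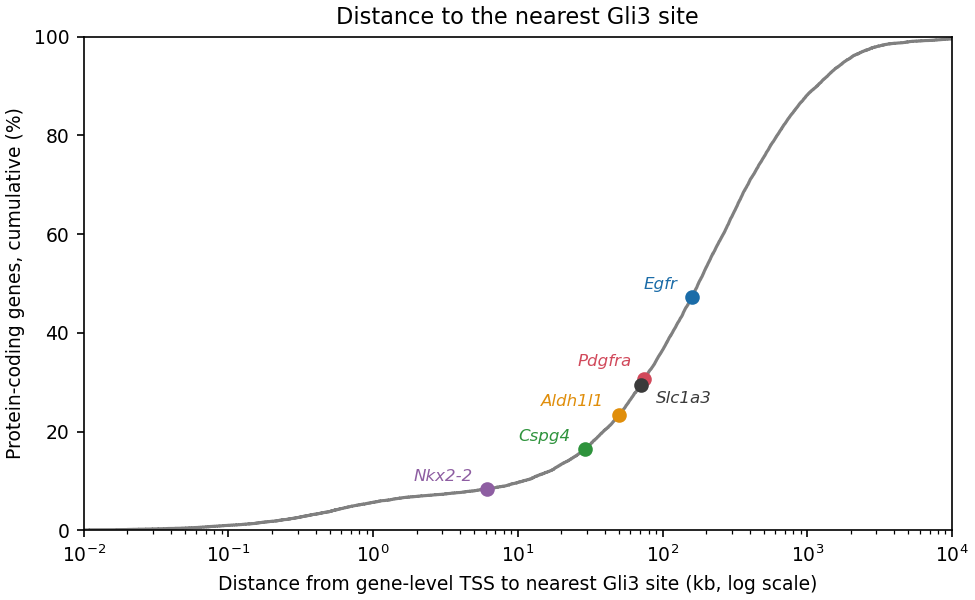
Cumulative share of protein-coding genes (vertical axis, %) whose gene-level TSS is within a given distance of a Gli3 site (horizontal axis, kb, log scale), with the 6 genes as points on the curve. *Nkx2-2*, at 6.15 kb, is the lowest point and *Egfr*, at 160 kb, the highest.

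Promoter sites, with a midpoint at most 2 kb from a TSS of any transcript, were 3 of the 15, or 20% (95% Wilson interval 7.05 to 45.2%), while they were 45.5% of all sites. Those 3 were *Nkx2-2* site 3, *Pdgfra* site 2 at *Gsx2* and *Aldh1l1* site 1 at *Cfap100*. The interval covers counting error over sites alone, not the choice of the genes. It also treats the 15 sites as independent, although they lie around 6 genes, and the difference from all sites was not tested. The midpoint lay inside the gene itself for 3 sites, inside another protein-coding gene for 6, in no annotated gene for 4, and in *Nkx2-2os* alone for 2. The nearest protein-coding TSS was that of the member gene for 7 sites, and that of *Lingo1* for 3 and of *Sec61g*, *Chic2*, *Gsx2*, *Pax1* and *Cfap100* for 1 each. Of the 300 bp promoters of the 6 genes in RefSeq (GRCm38.p6), each from 250 bases before to 50 after the start, none overlapped a site. None of the 6 held the exact core, which was present in 0.253% of 32851 such promoters. The *Egfr* promoter held a word within 1 mismatch, as did 6.74% of promoters.

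In width and base composition the 15 sites lay within the spread of all sites. Widths ran from 547 to 4238 bp with a median of 2042 bp, against 1989 bp for all sites. Among nonpromoter sites alone, the median width was 2780 bp for the 12 sites and 1865 bp for all, a difference that was not tested. The 3 sites under 1 kb were *Pdgfra* site 2, *Cspg4* site 2 and *Nkx2-2* site 2, and the 2 sites of at least 4 kb were *Cspg4* site 1 and *Aldh1l1* site 2. The GC content had a median of 50.63%, against 51.39%. The observed to expected CpG ratio had a median of 0.2271, against 0.305 for all sites, and among nonpromoter sites alone the medians were 0.2208 and 0.2211. No site of the 15 was more than 50% soft-masked, as 2.2% of all sites were.

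**Figure D4:**
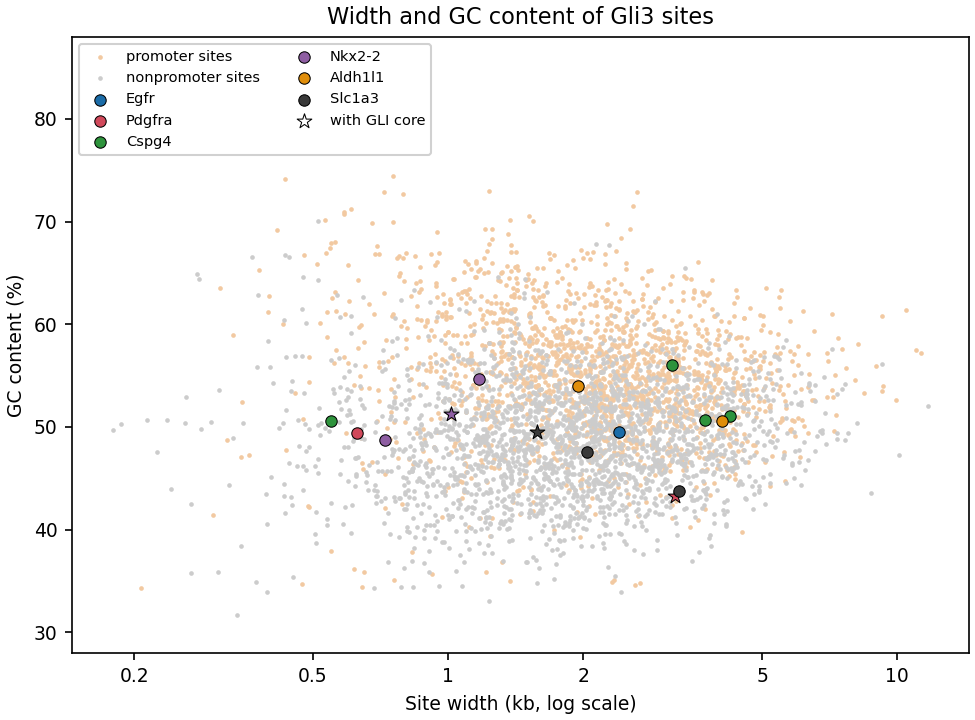
Width (horizontal axis, kb, log scale) and GC content (vertical axis, %) of the Gli3 sites on assembled chromosomes, with promoter sites in orange, other sites in grey and the 15 sites in the colour of their gene. Stars mark the 3 sites with an exact core, and the 15 sites spread over the bulk of the cloud between 43.3 and 56% GC.

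An exact core was present in 20% of the 15 sites (95% Wilson interval 7.05 to 45.2%) and in 12.2% of the 4099 sites on assembled chromosomes. Among nonpromoter sites alone, 2 of the 12 held an exact core, against 14.7% of all nonpromoter sites. With 1 mismatch allowed, 9 of the 15 sites, or 60%, held a match, against 64.7% of all sites. The density was 8.9 exact cores per 100 kb of site sequence, from 3 cores in 33.7 kb, and 6.33 for all sites. None of the 3 cores lay in the central 200 bp of its site (0 of 15, 95% Wilson interval 0 to 20.4%), while 1.71% of all sites held a core there. Among the 12 near cores, 4 differed at position 1 and 1 at position 2, and over all sites 15.1% differed at position 1 and 28.1% at position 2. Only these 2 of the 9 positions are compared, on few words, and the difference was not tested. Of the 24 exact cores in the windows of the 6 genes 12.5% lay in a site, and of the 18532 in the genome 3.19%. Every one of these windows holds a site, which by itself raises the share of cores in a site. The 12.5% rests on 3 cores, and the difference was not tested. Of the 15 sites, 12 were called without an exact core, and 21 of the 24 cores lay outside a site.

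Words of other factor families were counted on both strands as well. ACAATG was present in 11 sites, or 73.3% (95% Wilson interval 48 to 89.1%), against 56.1% of all sites. CAGCTG was present in 10 sites, 66.7% against 68.6%, and TAATTA in 7, 46.7% against 38.2%. The GC-rich SP family word GGGCGGGG was present in 2 sites, *Cspg4* site 3 and *Nkx2-2* site 1, which is 13.3% (95% Wilson interval 3.74 to 37.9%) against 33.8%. The first 8 bases of the core, GACCACCC, which overlap the core in full, were present in 4 sites, 26.7% against 20.4%, the fourth being *Slc1a3* site 2. The intervals contained the share of all sites for each of these words. Short words match by chance, more often in wide sites, and a match says nothing of binding.

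Other genes of the same lineages and pathways gave counts on both sides of the background. The background was 53.6% of protein-coding genes at 200 kb and 25.2% at 50 kb. As above, sites inside a gene counted at either limit. Where more than 5 genes of a list had a site within 50 kb, and for genes without one, the examples were picked for their roles after the values were seen. Of the 12 factors of progenitors and of glial specification, 11 (91.7%) had a site at 200 kb and the same number at 50 kb. Within 2 kb of the TSS, 4 had a site. *Hes1* and *Hes5*, Notch effectors, had 8 and 4 sites, and *Sox8* had 7. Among 14 other ligands and receptors of the EGF and ErbB family, 7 (50%) had a site at 200 kb and 3 (21.4%) at 50 kb. Those 3 were *Tgfa*, *Nrg1* and *Erbb4*. The site of *Erbb4* counted as inside this long gene, 984 kb from the TSS. *Tgfa*, a ligand of Egfr, had 3 sites with the nearest at 38.1 kb, and *Egf* had 1 at 75.9 kb, while *Hbegf*, *Areg*, *Ereg*, *Btc* and *Epgn* had none.

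Of the PDGF family and kin receptors, 5 of 10 (50%) had a site at 200 kb and 1 (10%) at 50 kb. That gene was *Pdgfa*, the gene of the Pdgfra ligand PDGF-A, which had 5 sites with the nearest 389 bp from its TSS, so that ligand and receptor differed in the position of their sites. Other oligodendrocyte genes had a site in 13 of 20 cases (65%) at 200 kb and in 4 (20%) at 50 kb. Those 4 were *Cnp*, *Mog*, *Opalin* and *Bcan*, and *Sox10* had 3 sites with the nearest at 126 kb. Other astrocyte genes had a site in 10 of 20 cases (50%) at 200 kb and in 7 (35%) at 50 kb. *Fgfr3* had 6 sites, with the nearest 1.12 kb from the TSS, and *Glul*, glutamine synthetase, had 1 at 0.153 kb, but *Aqp4*, *S100b*, *Gja1* and *Fabp7* had none. *Slc1a2*, the glutamate transporter GLT-1, had 2 sites with the nearest at 60 kb, where *Slc1a3* had its nearest at 70.9 kb.

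Among 6 relatives of *Nkx2-2* in the Nkx2 family, 5 (83.3%) had a site at 200 kb and none at 50 kb. *Nkx2-4* shared 2 of its 3 sites with *Nkx2-2*, and *Nkx2-6* had none. Folate enzymes and Slc1 transporters, the relatives in function of Aldh1l1 and Slc1a3, had a site in 7 of 12 cases (58.3%) at 200 kb and in 5 (41.7%) at 50 kb. *Mthfd1*, an enzyme of folate metabolism, had 3 sites with the nearest 1.12 kb from its TSS. *Aldh1l2*, the mitochondrial relative of *Aldh1l1*, had none. Over all 94 genes of the 7 lists, 61.7% had a site at 200 kb and 33% at 50 kb, against 53.6% and 25.2% of protein-coding genes.

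**Figure D5:**
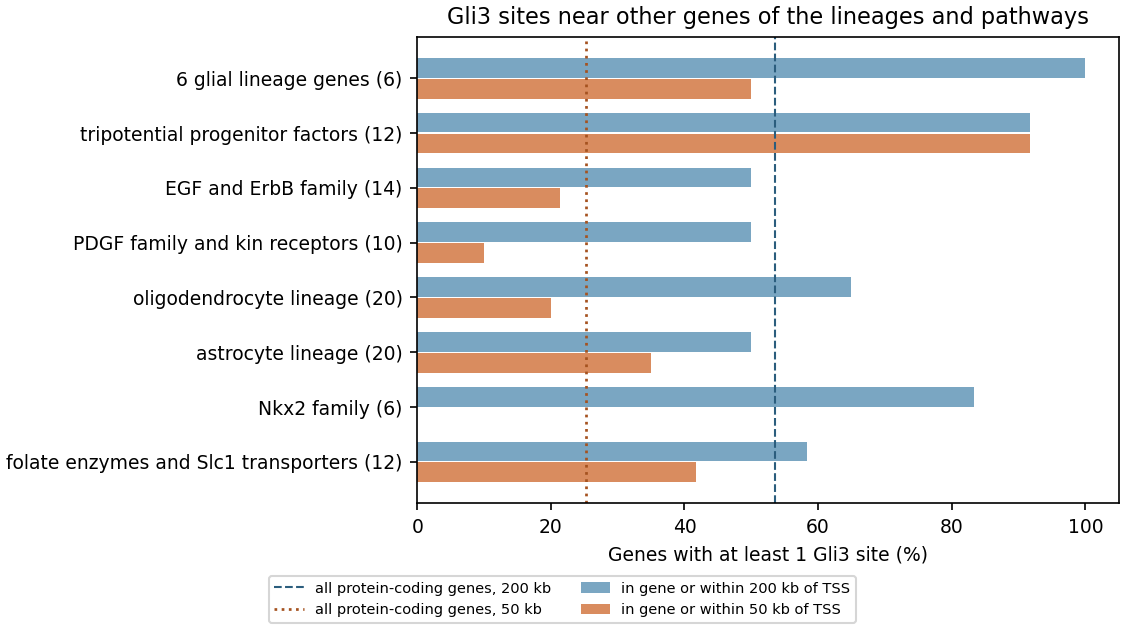
Share of genes with at least 1 Gli3 site (horizontal axis, %) in the 6 genes and in 7 lists of related genes, with the number of genes in brackets, inside the gene or within 200 kb (blue) or 50 kb (orange) of the TSS. Lines mark all protein-coding genes at 53.6 and 25.2%, and the progenitor factors reach 91.7% at both limits while the Nkx2 family has no gene with a site at 50 kb.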

How the data were processed

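Cortices of E15 wild-type embryos were fixed, and Gli3 ChIP and input DNA were sequenced. Per the file headers, the authors filtered repeats, mapped 85 bases per end to mm10 with Bowtie2, and retained peaks by the irreproducible discovery rate, given as positions without a score. The paper states a larger total of sites than the list analysed here holds, and all counts and shares rest on the list. The submitters' processing notes also name SAMtools and MACS2. Thresholds are not given in the sources used here.

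Genes came from GENCODE M21 and sequence, on assembled chromosomes alone, from GRCm38.p6. Coordinates are 1-based. The gene-level TSS is the outermost start of all transcripts. Named were the 6 genes, the nearest coding gene of each site, up to 3 genes with the highest overlap of sites, and list genes with a site within 50 kb, up to 5; some items that this rule covers are left out. The members and lists were chosen with earlier results of these data known. No test over replicates was possible; shares carry 95% Wilson intervals. Counting was checked on simulated data. Python 3.11.15, numpy 2.4.6 and scipy 1.17.1 were used. Windows, promoter, core match and merging were varied.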

Additional observations from a re-analysis of the deposited data

How the results depend on the processing

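The number of sites depends above all on the distance allowed. The 15 sites of the 6 genes became 3 at 50 kb, 9 at 100 kb and 27 at 500 kb, and 7 when a site was given to the nearest coding TSS alone. The median per gene, 2.5, became 0.5, 1.5, 4.5 and 1 in the same order. Over all protein-coding genes the median was 0 at 50 kb, 0 at 100 kb and 2 at 500 kb. Genes with a site were 3 of 6 at 50 kb, and 5 at 100 kb, where 37.4% of protein-coding genes had one. At 500 kb all 6 had a site, as did 75.6% of protein-coding genes. Promoter sites fell from 3 to 1 when the promoter was the 2 kb upstream of a TSS only, as the paper defines it. The share of all sites under that definition is not given here, so the 1 site has no background. Sites with the core, 3, became 9 with 1 mismatch and 0 in the central 200 bp. The related genes with a site fell from 58 to 31 at 50 kb, a limit chosen for the lists after seeing the data. The total of sites stayed within 1.5 times of that reported without the gene body, with any overlap, with the TSS of any transcript (19 sites, although *Aldh1l1* rose from 2 to 4 and *Slc1a3* from 3 to 5), with sites within 1 kb merged (14 sites), and without sites more than 50% soft-masked, which was added after seeing the data. No paired analysis was possible because the replicates were joined in 1 list, and for the same reason no replicate could be left out. A stricter threshold could not be applied, since the sites carry no score.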
